A study of Homo sapiens with 4 samples.

Results

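The genes described here are 9 neuroendocrine lineage genes, taken by symbol from the 60544 rows of the deposited gene count table. They are the transcription factors NEUROD1, INSM1, FOXA2 and SOX2, the markers CHGA, SYP, ENO2 and NCAM1, and the repressor REST. All 9 symbols had a row. They were measured in poly(A) RNA from PC3, an established human prostate cancer cell line, in 2 libraries labelled shNC, the control, and 2 labelled sh812. The series compares METTL3 knockdown with control, and sh812 is read as the knockdown because it is the only other label. Both arms were PC3 cells grown in RPMI-1640 medium with 10% fetal bovine serum. The labels do not say whether the replicates came from separate cultures, so p-values measure only the spread between these libraries, which may be technical. 1 hairpin label stands for the knockdown arm, so its effect and that of METTL3 loss cannot be told apart.

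Neuroendocrine cells are a scarce secretory cell type of the prostate epithelium that makes hormones and stores them in dense granules. Prostate cancers can take on features of these cells under treatment, and pathologists recognise the change by proteins such as chromogranin A (CHGA), synaptophysin (SYP), neuron-specific enolase (ENO2) and the adhesion molecule NCAM1. Factors such as NEUROD1 and INSM1 switch such programs on, while REST binds neuronal genes in other cells and recruits corepressors that keep them off. METTL3 carries the enzyme activity that places N6-methyladenosine (m6A) on messenger RNA, often in the sequence GGACT and often near the stop codon.

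The libraries held 31450648 to 37041330 counts. Counts between 1 and 10 were even in 70.7% to 71.4% of genes in each library, and more genes had 2 counts than 1 (2549 against 1000 in shNC replicate 1), the pattern that counting both reads of a pair gives. A count of 4 may therefore stand for 2 sequenced fragments. METTL3 itself had 44.3 and 43.6 CPM in shNC and 7.66 and 8.74 CPM in sh812, where CPM is the count over the TMM-scaled library total. Its log2 fold change was -2.42 (SE 0.11, edgeR adjusted p = 5.54e-14, by the quasi-likelihood test and the Benjamini-Hochberg method). The epithelial markers EPCAM, KRT8 and KRT18 were present, with a summed level of 429.7 to 548.9 CPM. The leukocyte markers PTPRC, CD3E and CD68 summed to 0.399 to 0.869 CPM, and CD3E was at 0 in all 4 libraries. The stromal markers COL1A1 and DCN summed to 29.8 to 40.1 CPM and the endothelial markers PECAM1 and VWF to 23.7 to 38.6 CPM. COL1A1, a collagen gene of fibroblasts, had 1426 and 1246 counts in shNC and 1029 and 1234 in sh812 (log2 fold change -0.27, SE 0.092, edgeR adjusted p = 0.0589). It passed the threshold with library size alone, at a mean CPM of at least 1, with the replicate block and without shNC replicate 1. The part of these markers in the results was not tested.

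The word GGACT was looked up in the coding transcript with the longest coding part of each of the 4 members whose expression could be tested, because the knocked-down enzyme acts on such words. The sequences below, from GENCODE 29 on GRCh38, show for each gene the GGACT nearest to the stop codon, in capitals, with 10 bases on each side.
REST: cttttccttaGGACTttttatgtat
ENO2: actttgtcagGGACTatcctgtggt
SYP: tgtgacctcgGGACTcaacacctcg
The REST word lies in the 3′ UTR, 140 bases after the start of the stop codon (window chr4:56932280-56932304, plus strand). The ENO2 word is coding, 448 bases before the stop codon, at chr12:6919753-6919757 on the plus strand, and its window crosses an exon junction. The SYP word is coding as well, 342 bases before the stop codon (window chrX:49193275-49193299, minus strand).

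The FOXA2 transcript of 2422 bases, read in the sense strand as the others were, held no GGACT. The REST transcript held 5, or 0.685 per kb, and 67.0% of the tested genes with a coding transcript were at least as dense. ENO2 held 6 (2.12 per kb) and SYP held 5 (2.00 per kb), and 7.43% and 9.23% of those genes were at least as dense. The median over 13225 such genes was 0.937 per kb, and 91.1% of them held the word at least once. A match is a description of the sequence and not a measured m6A site.

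PC3 expressed 3 of the 9 genes clearly, namely ENO2, REST and FOXA2. SYP was low, and the other 5 had at most 6 counts in any library. The low-count filter kept 4 of the 9, and 1 of these 4, REST, was called lower at an adjusted p under 0.05. None was called higher. Over all genes the same test called 10.8% of 16802, with 5.42% lower and 5.43% higher. The median log2 fold change of the 4 tested genes was -0.00022, beside -0.0056 over all tested genes.

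**Figure D1:**
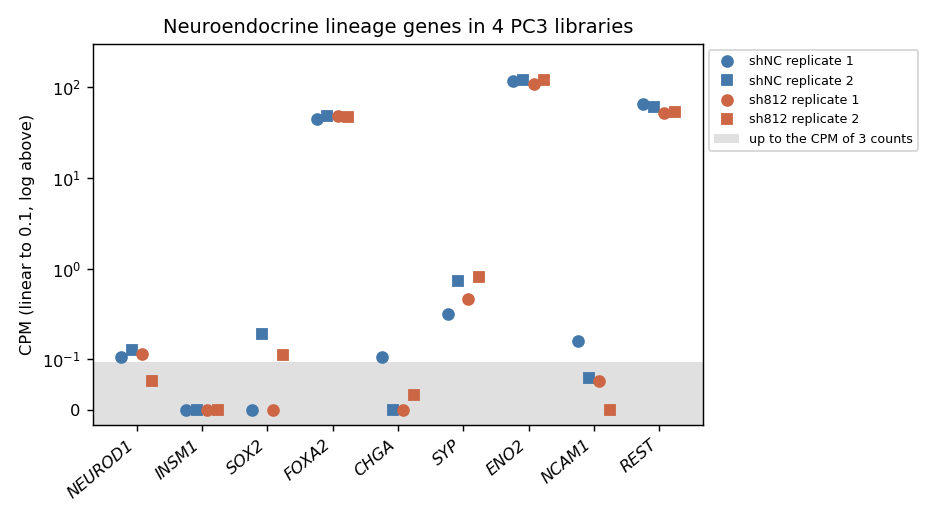
CPM of the 9 genes (y axis, linear up to 0.1 and logarithmic above) in each of the 4 libraries, with blue for shNC, orange for sh812, and the symbol giving the replicate. ENO2, REST and FOXA2 sit between 44.9 and 121.6 CPM, SYP sits under 1 CPM, and the other 5 lie at or near the grey band that marks up to 3 counts.

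Among the drivers, FOXA2, a pioneer factor of endodermal organs that is also found in neuroendocrine prostate tumours, was well expressed. FOXA2 (ENSG00000125798) is on chromosome 20 (minus strand, 22581005 to 22585455). Its counts were 1706 and 1507 in shNC and 1708 and 1690 in sh812, or 44.9 and 47.6 against 48.6 and 47.2 CPM. The ranges of the groups overlapped, since sh812 replicate 2 lay below shNC replicate 2. Mean levels were 46.3 ± 1.89 CPM in the control arm and 47.9 ± 1.01 CPM in the sh812 arm (SD, n = 2 each). The log2 fold change was 0.050 (SE 0.079, edgeR adjusted p = 0.757), with a 95% interval from -0.11 to 0.21.

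NEUROD1, a basic helix-loop-helix factor of neurons and endocrine cells, had 4 and 4 counts in shNC and 4 and 2 in sh812. INSM1, a zinc finger factor of neuroendocrine differentiation, had 0 counts in all 4 libraries. A count of 0 allows up to 3 counts, which is 0.0790 and 0.0948 CPM in the shNC libraries and 0.0854 and 0.0838 CPM in the sh812 libraries. If both reads of each pair were counted, 3 fragments are 6 counts, and these limits become 0.158, 0.190, 0.171 and 0.168 CPM in the same order. They cover counting error only. SOX2, a factor of stem and neural progenitor cells linked to lineage plasticity, had 0 and 6 counts in shNC and 0 and 4 in sh812. SOX2 was thus at 0 in 1 library of each arm, and the groups overlapped. NEUROD1 shares 236 exonic bases with CERKL on the same strand. How reads in such bases were counted is not given, so its few counts may include CERKL reads or miss some of its own.

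The granule and synapse markers were nearly silent. CHGA, a core protein of dense secretory granules, had 4 and 0 counts in shNC and 0 and 1 in sh812. NCAM1, an adhesion molecule of neural and natural killer cells, had 6 and 2 counts in shNC and 2 and 0 in sh812. Its highest count was in shNC replicate 1, and 2 libraries of different arms had the same count of 2. SYP, a membrane protein of synaptic vesicles, was the only one of these 3 to pass the filter.

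SYP (ENSG00000102003) is on chromosome X (minus strand, 49187804 to 49200259). It had 12 and 23 counts in shNC and 16 and 29 in sh812, or 0.316 and 0.727 against 0.455 and 0.810 CPM. The 2 replicates of each arm differed more than the arms did, and the groups overlapped. The log2 fold change was 0.30 (SE 0.59, edgeR adjusted p = 0.816), and its 95% interval ran from -0.92 to 1.52. At this depth neither a rise to over 2-fold nor a fall by close to 2-fold was outside that interval. The direction turned when 1 library was left out, to -0.20 without shNC replicate 1 and to -0.18 without sh812 replicate 2.

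With no low-count filter, which tests 29783 genes and calls 6.49% of them, 8 of the 9 genes had a test and REST was the only one called. The adjusted p in edgeR was then 0.934 for NEUROD1, 0.916 for SOX2, 0.809 for CHGA and 0.747 for NCAM1. INSM1, with no count, could not be tested. No fold is given for these genes because in each of them at least 1 arm is at or near the floor of 3 counts. The 5 genes together had 14 and 12 counts in shNC and 6 and 7 in sh812.

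ENO2, the neuron-specific isoform of the glycolytic enzyme enolase, was the most abundant of the 9. ENO2 (ENSG00000111674) is on chromosome 12 (plus strand, 6913745 to 6923698). Its counts were 4456 and 3833 in shNC and 3815 and 4355 in sh812, or 117.4 and 121.1 against 108.6 and 121.6 CPM. The lowest and the highest of the 4 values were both sh812 libraries. Mean levels were 119.2 ± 2.64 CPM in the control arm and 115.1 ± 9.20 CPM in the sh812 arm (SD, n = 2 each). The log2 fold change was -0.051 (SE 0.067, edgeR adjusted p = 0.705), with a 95% interval from -0.19 to 0.087. It was 0.029 without sh812 replicate 1.

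REST, the zinc finger repressor of neuronal genes, was the only one of the 9 genes that changed by the test. REST (ENSG00000084093) is on chromosome 4 (plus strand, 56907876 to 56966678) and shares 23 exonic bases with NOA1 on the opposite strand. Its counts were 2478 and 1904 in shNC and 1838 and 1932 in sh812, or 65.3 and 60.2 against 52.3 and 53.9 CPM. Both sh812 libraries lay below both shNC libraries, an arrangement that 27.3% of all tested genes showed in this direction. Mean levels were 62.7 ± 3.62 CPM in the control arm and 53.1 ± 1.15 CPM in the sh812 arm (SD, n = 2 each), so sh812 stood at 84.7% of shNC.

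The log2 fold change of REST was -0.24 (SE 0.075, edgeR adjusted p = 0.0391), with a 95% interval from -0.39 to -0.085. Its decrease was small among those called: of 910 genes called lower, 100 had a smaller change, and their median log2 fold change was -0.38. The call was close to the threshold. DESeq2, which called 11.8% of the 12567 genes it gave an adjusted p, gave REST an adjusted p of 0.0588 at a log2 fold change of -0.24. With each library's trend on transcript length removed, a fit that called 9.91% of genes, the log2 fold change was -0.18 (edgeR adjusted p = 0.106), and REST, with 7983 exonic bases, is a long gene. The adjusted p in edgeR was 0.158 without shNC replicate 1, 0.345 without sh812 replicate 1 and 0.188 without sh812 replicate 2, while it was 0.00278 without shNC replicate 2. REST was lower in sh812 in each of these fits.

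**Figure D2:**
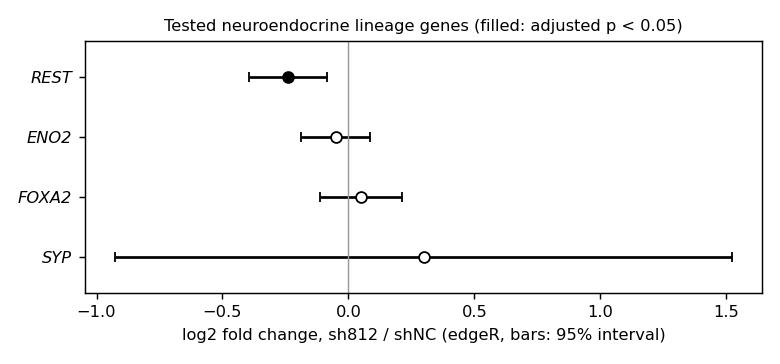
Log2 fold change of sh812 over shNC for the 4 genes past the low-count filter (x axis), with 95% intervals from the edgeR fit and a filled point where the adjusted p is under 0.05. The REST interval, from -0.39 to -0.085, lies below 0, and those of ENO2, FOXA2 and SYP include 0.

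**Figure D3:**
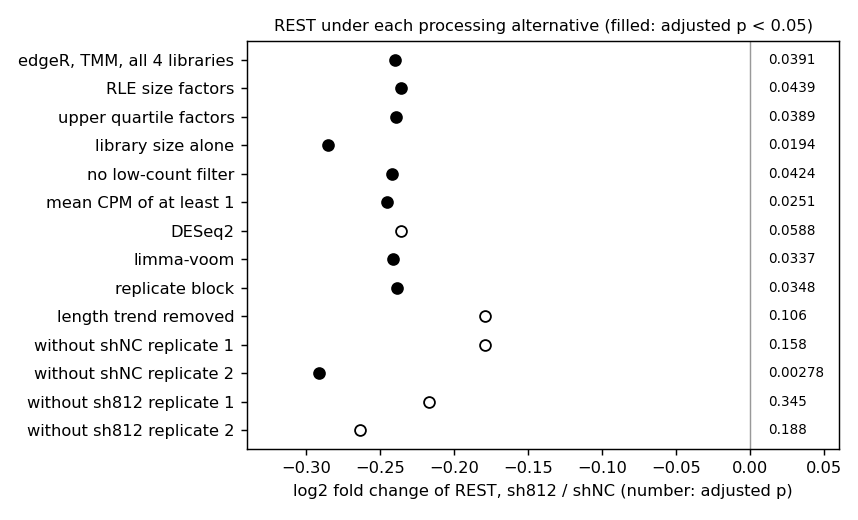
Log2 fold change of REST (x axis) under each processing alternative (rows), with the adjusted p printed at the right and a filled point where it is under 0.05. The values run from -0.29 to -0.18 and are open with DESeq2, with the length trend removed and without 3 of the 4 libraries taken 1 at a time.

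By their 4 library values, centred on each gene's own mean log2 CPM, the genes closest to REST among 4519 with a mean CPM within 2-fold of it were PDP1, ATP8B2 and KLHL9. PDP1, a mitochondrial phosphatase that acts on pyruvate dehydrogenase, had 53.2 and 49.3 CPM in shNC and 42.5 and 44.0 in sh812, a log2 CPM distance of 0.0081 from REST. ATP8B2, a P4-type ATPase, was 0.0097 away and KLHL9, an adaptor of a ubiquitin ligase, was 0.021 away. With 4 libraries this likeness describes shape only.

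Per kilobase of exon, the order of the expressed members was ENO2, FOXA2, REST and SYP. ENO2 had 25.4 to 28.4 CPM per kb over the 4 libraries, FOXA2 17.3 to 18.7, REST 6.55 to 8.18 and SYP 0.0606 to 0.155. These ranges did not overlap. Below SYP, the means of NEUROD1 (0.0303), SOX2 (0.0300), CHGA (0.0107), NCAM1 (0.0055) and INSM1 (0) rest on so few counts that their order cannot be told.

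Of the closest paralogs, listed for each gene from general knowledge, some were expressed and others were as silent as the member. ENO1, the ubiquitous enolase, had 686.4 to 869.1 CPM per kb, and ENO3, the muscle form, 0.267 to 0.358. ENO1 had 3622 and 4196 CPM in shNC and 4460 and 4585 in sh812. It rose, with a log2 fold change of 0.21 (SE 0.060, edgeR adjusted p = 0.0244), and the call was lost without sh812 replicate 1 (edgeR adjusted p = 0.151) and without sh812 replicate 2 (0.254). Without shNC replicate 1 its log2 fold change was 0.11, and leaving out shNC replicate 2 gave 0.33. Whether ENO1 and ENO2 changed by different amounts was not tested. FOXA1, the luminal counterpart of FOXA2, had 21.2 to 23.6 CPM per kb, above the FOXA2 range. Its log2 fold change was -0.056 (SE 0.069, edgeR adjusted p = 0.679).

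The vesicle proteins SYPL1 and SYNGR2, relatives of SYP found in many tissues, had 85.1 to 90.6 and 62.8 to 73.1 CPM per kb. NCAM2 had 0.446 to 0.553, all above the highest NCAM1 value of 0.0124. In the SOX family, SOX4 (14.0 to 16.4), SOX9 (12.8 to 15.4) and SOX21 (9.71 to 11.3) were expressed, while SOX1 and SOX3, the nearest relatives of SOX2, had 0 counts in all 4 libraries. NEUROD2 and NEUROD6 were also at 0 in all 4. NEUROD4 had 2 and 0 counts in shNC and 0 and 0 in sh812, and INSM2 had 2 and 0 against 4 and 2. Of the 19 paralogs, 10 were tested, 1 was called higher (ENO1) and 0 lower in edgeR, beside 5.43% and 5.42% of all tested genes. Without adjustment, p was under 0.05 for the same 1, beside 11.9% higher and 12.9% lower over all tested genes. DESeq2 also called 1 higher and 0 lower, beside 11.8% in either direction of the genes it gave an adjusted p.

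**Figure D4:**
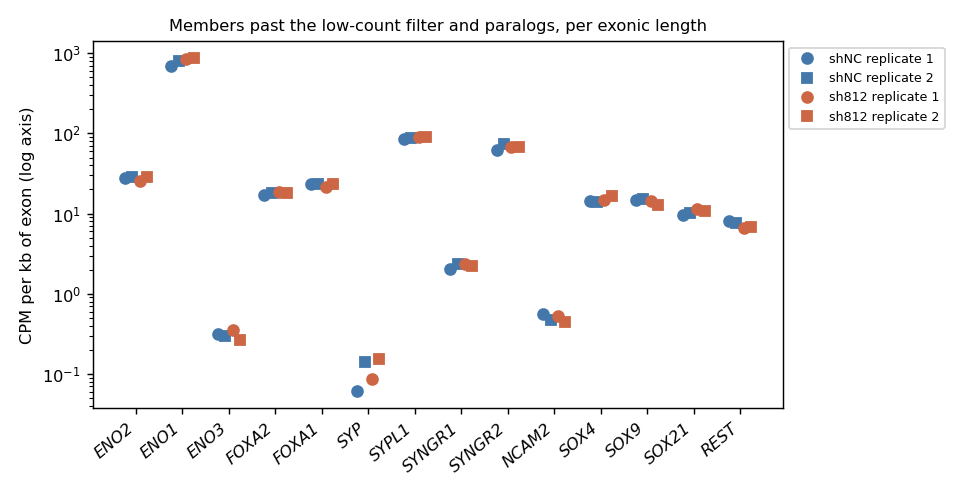
CPM per kb of exon (y axis, logarithmic) in the 4 libraries, blue for shNC and orange for sh812, for the tested members and their tested paralogs. ENO1, SYPL1 and SYNGR2 lie far above ENO2 and SYP, FOXA1 lies just above FOXA2, and the arms lie close together for each gene.

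Other neuroendocrine genes were read from lists written from general knowledge. Of 20 other drivers, 9 were tested and 0 were called in edgeR, beside 10.8% of all tested genes. Their median log2 fold change was -0.037. In all 4 libraries 8 of the 20 had 0 counts, among them MYCN, which drives many neuroendocrine tumours, and SRRM4, the splicing factor that makes a truncated REST isoform. Gene counts cannot show REST isoforms. PEG10, a retrotransposon-derived gene, had the highest mean CPM of the drivers. It had 330.9 and 300.5 CPM in shNC and 337.6 and 317.1 in sh812 (log2 fold change 0.052, edgeR adjusted p = 0.665). Per kb of exon it had 44.9 to 50.5 CPM, below the 64.3 to 72.9 of AURKA. Without adjustment, p was under 0.05 for 1 driver that was higher (AURKA) and 2 that were lower (PROX1 and EZH2). Over all tested genes these shares were 11.9% higher and 12.9% lower. DESeq2 called 0, beside 11.8% of the genes it gave an adjusted p, but these were only 12567 of the 16802 genes. SYP, at a mean of 0.577 CPM, had none in DESeq2, so the 0 may not cover PROX1, at a mean of 0.585 CPM. PROX1, a homeobox factor, had 29 and 33 counts in shNC and 8 and 11 in sh812 (log2 fold change -1.74, SE 0.59, edgeR adjusted p = 0.0593). Other fits called some of these 3: EZH2 lower with library size alone, PROX1 lower with no low-count filter, and AURKA higher and EZH2 lower without shNC replicate 2. AURKA, PROX1 and EZH2 were singled out after their values were seen.

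Of 33 other secretory and neuronal markers, 15 were tested, with a median log2 fold change of 0.076. In edgeR 2 were called higher and 1 lower, beside 5.43% and 5.42% of all tested genes. Without adjustment, p was under 0.05 for 3 that were higher and 1 that was lower, beside 11.9% and 12.9% of all tested genes. This added UCHL1, with 4 and 10 counts in shNC and 26 and 18 in sh812 (log2 fold change 1.58, SE 0.69, edgeR adjusted p = 0.153). With no low-count filter RTN1 was called lower too, on 26 and 4 counts in shNC and 2 and 0 in sh812. UCHL1 and RTN1 were picked with their values known. NEFL, the light chain of neurofilaments, had the highest mean CPM of the 33, at 308.6 and 319.4 CPM in shNC and 415.4 and 417.7 in sh812. NEFL rose by a log2 fold change of 0.41 (SE 0.057, edgeR adjusted p = 3.19e-05), with both sh812 libraries above both shNC libraries. MAP2, a neuronal microtubule protein, had 2.05 and 1.45 CPM in shNC and 2.90 and 3.63 in sh812. Its log2 fold change was 0.89 (SE 0.27, edgeR adjusted p = 0.0371), and its adjusted p was 0.0793 in DESeq2 and 0.0519 in edgeR with library size alone. In edgeR the MAP2 call was also lost without shNC replicate 2 (adjusted p = 0.107), without sh812 replicate 1 (0.0537) and without sh812 replicate 2 (0.282).

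CPE, the carboxypeptidase that trims prohormones in secretory granules, went the other way. CPE had 48.7 and 52.0 CPM in shNC and 37.0 and 41.2 in sh812, a log2 fold change of -0.36 (SE 0.083, edgeR adjusted p = 0.00569), and its adjusted p was 0.185 without sh812 replicate 1. The hormone genes GRP and CALCA and the convertase gene PCSK2 had 0 counts in all 4 libraries. Other secretory genes of the list were expressed and not called. Over the 4 libraries PCSK1N had 25.8 to 32.7 CPM, SYT1 6.89 to 9.06 and SCG5 4.11 to 4.96. CHGB, the partner of CHGA in granules, had 0 and 0 counts in shNC and 4 and 4 in sh812, which may stand for 2 fragments in each. DLL3, a Notch ligand of neuroendocrine tumours, had 209 and 158 counts in shNC and 195 and 198 in sh812 (log2 fold change 0.076, edgeR adjusted p = 0.846). GRP, CALCA, PCSK2, PCSK1N, SYT1, SCG5, DLL3 and CHGB were picked with their values known.

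All 23 corepressors and regulators of REST passed the low-count filter, though CTDSPL, a phosphatase, had only 20 and 20 counts in shNC and 32 and 12 in sh812. Of these, 1 was called higher and 0 lower, beside 5.43% and 5.42% of all tested genes, with a median log2 fold change of 0.067. KDM1A, the histone demethylase of the REST-CoREST complex, had 226.7 and 217.5 CPM in shNC and 273.0 and 274.0 in sh812. KDM1A rose by a log2 fold change of 0.30 (SE 0.058, edgeR adjusted p = 0.00143). The scaffold RCOR1 had a log2 fold change of 0.072 (SE 0.068, edgeR adjusted p = 0.572), and its relative RCOR3 one of -0.27 (SE 0.098, adjusted p = 0.0718). SMARCA4, a chromatin remodelling ATPase and the most abundant of the list, had a log2 fold change of 0.17 (SE 0.062, edgeR adjusted p = 0.0700). SMARCA4 passed the threshold with the length trend removed (log2 fold change 0.26, edgeR adjusted p = 0.00482), with no low-count filter (0.17, adjusted p = 0.0335) and without shNC replicate 1 (0.23, adjusted p = 0.00012). Its log2 fold change was 0.11 without sh812 replicate 1. Of the 23, 4 were called higher and 0 lower with the length trend removed, beside 875 and 774 of all 16635 genes tested in that fit. Library size alone called 1 higher and 2 lower (RCOR3 and SIN3B), beside 561 and 1328 of all 16802 genes tested in that fit. Without shNC replicate 2 the log2 fold changes of RCOR3, SIN3B and PHF21A were -0.37, -0.20 and -0.36. In the same fit those of KDM1A and HMG20B were 0.28 and 0.21. CTDSPL, RCOR1, RCOR3, SIN3B, PHF21A and HMG20B were picked with their values known.

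Of 22 genes known as REST targets, SYP and CHGA among them, 12 were tested and 0 were called in edgeR, beside 10.8% of all tested genes. Their median log2 fold change was -0.037, with 5 above 0 and 7 below. Without adjustment, p was under 0.05 for 0 that were higher and 3 that were lower (SCN2A, BDNF and CELSR3). DESeq2 called 0, beside 11.8% of the genes it gave an adjusted p, but some low-count genes had none, SYP among them. Over all tested genes, p without adjustment was under 0.05 for 11.9% that were higher and 12.9% that were lower. CELSR3, a cadherin of axon guidance singled out after its values were seen, had 6.24 and 6.13 CPM in shNC and 3.44 and 4.83 in sh812 (log2 fold change -0.58, SE 0.19, edgeR adjusted p = 0.0511). CELSR3 was called lower with library size alone, with no low-count filter, at a mean CPM of at least 1, with the replicate block, without sh812 replicate 2 and without shNC replicate 2. The last of these fits also called BDNF lower. The most abundant target, the adhesion molecule gene L1CAM, had 7.30 and 7.80 CPM in shNC and 7.23 and 7.68 in sh812 (edgeR adjusted p = 0.964). The median of the list was -0.48 without sh812 replicate 2 and 0.28 without shNC replicate 2. Each of these fits tested 14 genes of the list and not 12, so these medians and -0.037 are not over the same genes.

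**Figure D5:**
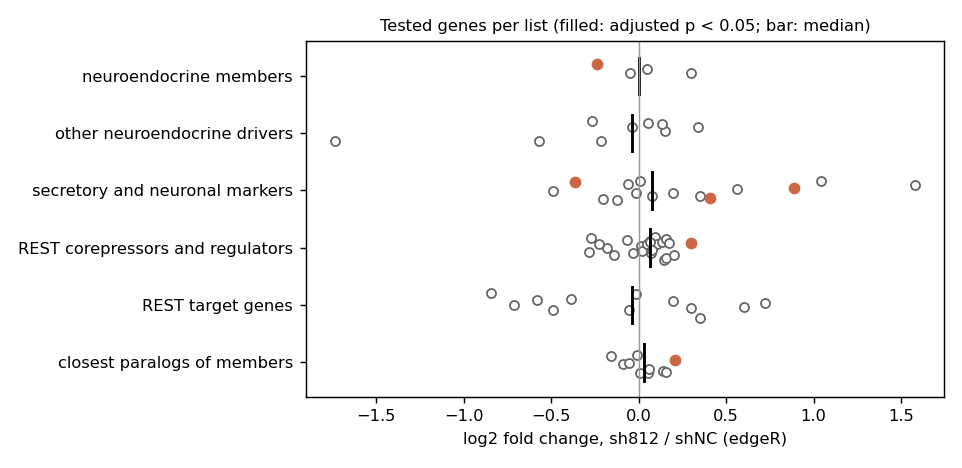
Log2 fold change of sh812 over shNC (x axis) for the tested genes of each list (rows), 1 point per gene, filled where the adjusted p in edgeR is under 0.05, with a bar at the median. The medians lie between -0.037 and 0.076, and the filled points are REST, CPE, NEFL, MAP2, KDM1A and ENO1.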

How the data were processed

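The authors deposited 1 table of raw read counts per gene (whole numbers, not normalized, per the file headers and values). The submitters' processing notes name fastp, STAR 2.7.1a, featureCounts, DESeq2 and build hg38; the annotation release, the strand setting and the unit of a count (read or pair) are not given in the sources used here. How reads in bases shared by overlapping genes were counted is not given either, so such genes may share counts or lose them.

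All 60544 genes entered edgeR 4.0.16 in R 4.3.3 (filterByExpr, TMM, quasi-likelihood test on 4 libraries, no covariate, prior count 0.125), with Benjamini-Hochberg adjustment over the 16802 genes kept and a threshold of 0.05. SEs come from the F statistic. CPM uses total counts and TMM factors. Alternatives included DESeq2 1.42.0 and limma-voom (limma 3.58.1). The methods were tested on simulated data, in which the changed genes had larger changes than REST and none was a low-count gene. That test therefore covers neither case. Replicates differed beyond sampling noise (chi-square per gene 8.43 in shNC and 4.51 in sh812). Positions and lengths are from GENCODE 29 (GRCh38).

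The 9 genes and the lists were chosen with earlier results of these data known. Named are the 9 genes, METTL3, the called genes of each list (at most 6), its gene with the highest mean CPM, paralogs, and the 3 genes most like a called member. Some genes chosen by this rule are not shown.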

Additional observations from a re-analysis of the deposited data

How the results depend on the processing

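Of the 9 genes, 1 was called (REST), and 0 were called with DESeq2 and 0 with the length trend removed. Leaving out each library in turn gave 0 to 1. Such fits leave 1 library in an arm, which is assumed to vary like the other arm. They moved the count of all called genes, 1822, to between 587 (without sh812 replicate 1) and 3252 (without shNC replicate 2), and that of called genes in the other lists, 10, to between 6 and 19. The cause was not tested, beyond the loss of a sample. Without each library in turn, log2 fold changes ran from -0.20 to 1.00 for SYP, from -0.14 to 0.029 for ENO2, from -0.010 to 0.12 for PEG10 and from -0.066 to 0.036 for L1CAM. With the length trend removed they were -0.0080 for FOXA2 and 0.034 for L1CAM, both with the sign turned. REST kept its direction in all 14 alternatives, from -0.29 to -0.18, and passed the threshold in 9. Of these 9, 1 was a fitted prior count of 2, which alters the fold change and not the test. Its edgeR adjusted p stayed at 0.0391, so that pass was fixed in advance and is no further check. METTL3 passed in all 13 of its own. With library size alone the median over all genes went, in log2 fold change, from -0.0056 to -0.050, with 561 genes called higher and 1328 lower against 912 and 910. The replicate numbers are shared between the arms, and the labels do not say whether they pair libraries. Same-numbered libraries had a correlation of deviations of 0.016 over the tested genes. This cannot settle the pairing, because the deviations of low-count genes are largely counting noise. With the replicate block 2001 genes were called, and REST had a log2 fold change of -0.24 (edgeR adjusted p = 0.0348). SYP had no adjusted p in DESeq2 and no test at a mean CPM of at least 1. Counts of 6 or fewer limit what can be said of NEUROD1, SOX2, CHGA, NCAM1 and INSM1.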

Other observations

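Markers of other lineages were read beside the neuroendocrine genes. Of 13 luminal and basal prostate markers, 9 were tested, 1 was called higher and 2 lower in edgeR, beside 5.43% and 5.42% of all tested genes. KLK3 and KLK2, the kallikrein genes of secretory luminal cells, and the basal keratin gene KRT14 had 0 counts in all 4 libraries. TMPRSS2, a luminal serine protease, had 10.1 and 9.16 CPM in shNC and 4.73 and 6.81 in sh812, a log2 fold change of -0.74 (SE 0.17, edgeR adjusted p = 0.00546, and 0.162 without sh812 replicate 1). KRT18, a keratin of simple epithelia, rose from 138.8 and 169.0 CPM to 185.6 and 193.8 CPM (log2 fold change 0.30, SE 0.072, edgeR adjusted p = 0.00793, and 0.0957 without sh812 replicate 2). Without shNC replicate 1 the log2 fold change of KRT18 was 0.17, and leaving out shNC replicate 2 gave 0.46. Its partner KRT8, which overlaps it by 525 exonic bases on the opposite strand, had a log2 fold change of 0.13 (SE 0.060, edgeR adjusted p = 0.186). HOXB13, a prostate lineage factor chosen after its values were seen, had a log2 fold change of -0.060 (SE 0.060, edgeR adjusted p = 0.595).

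Among 8 markers of other cell types, 5 were tested, and EPCAM and PECAM1 were called higher, beside 5.43% of all tested genes. EPCAM, an epithelial adhesion molecule, rose by a log2 fold change of 0.45 (SE 0.070, edgeR adjusted p = 0.000128). PECAM1, an adhesion molecule of endothelial cells and platelets, had 23.8 and 23.6 CPM in shNC and 32.9 and 38.5 in sh812 (log2 fold change 0.59, SE 0.096, edgeR adjusted p = 0.000222), while the endothelial gene VWF had 0 and 2 counts in shNC and 0 and 2 in sh812.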
